A study of Mus musculus with 6 samples.

Results

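The genes described here are the numbered zinc finger protein genes of the mouse, those whose symbol is Zfp followed by digits only. They were taken from an mRNA-seq comparison of 2 subpopulations of Mvt1 cells and were chosen by their name and by their total read count. The count was taken over both groups together, so a gene that is high in only 1 group could pass. Of 247 such annotations in the deposited counts, only Zfp36 was left out by name. Its protein, tristetraprolin, carries zinc fingers of another type and binds RNA. The other genes were not screened for the type of finger. Of the remaining 246, the 205 with at least 100 reads summed over the 6 libraries were kept, out of 14729 gene annotations with a read. The read minimum was crossed by Zfp647 with 103 reads, Zfp58 with 125 and Zfp3 with 128, and missed by Zfp97 with 97 and by Zfp429 and Zfp708 with 92 each. The 41 genes under the minimum are not described further, and all 205 kept genes also passed the expression filter of the test.

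Mvt1 is a cell line grown from a mammary tumour of an FVB/N mouse that carried Myc and Vegf transgenes under the MMTV promoter. Cells of this 1 line were sorted by flow cytometry into CD24- cells, without CD24 on their surface, and CD24+ cells. CD24 is a small glycoprotein anchored in the cell membrane, and both groups grew in the same medium with no further treatment. Each group gave 3 libraries, 1 per plate, and no independent sorts are described, so the p-values below measure the spread between plates. Anything else that came to differ between the sorted populations cannot be told apart from CD24 status.

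Zinc finger proteins of the C2H2 class hold a zinc ion between 2 cysteines and 2 histidines in each finger, and strings of such fingers read DNA sequence. Many also carry a KRAB box, which binds Trim28 (also called KAP1), a scaffold that brings the histone methyltransferase Setdb1 and other silencing factors to the bound site. KRAB zinc finger proteins are known for silencing retroelements and for marking imprinted loci, and their genes often lie side by side in clusters formed by duplication. Other proteins of the same naming series have no KRAB box and act as activators, RNA-binding proteins or ubiquitin ligases. The number in the name carries no information on function.

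Because these genes arose by duplication, each read was first checked for where it could come from. The deposited reads are 47 nt long and mapped without mismatch, and each was given 1 annotation. Of the reads annotated to the 205 genes, 91.9% to 93.0% in the CD24- libraries and 93.9% to 95.3% in the CD24+ libraries were found in a GENCODE M21 transcript of the same gene. Between 4.86% and 5.45% were also found in a transcript of another gene. In 130 genes no read that matched the gene's own transcripts was also found in another gene. Reads found only in another gene do not enter this count, so Zfp184, with 97.2% such reads, is among the 130. In 16 genes over 30% of the matching reads were shared with another gene. Among the 16 are Zfp784, with 98.6% of its matching reads shared, Zfp593 with 89.0%, Zfp82 with 85.5% and Zfp422 with 38.6%, so their values are uncertain.

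The counts of Zfp184 and Zfp9 were mostly those of other genes. Only 2.45% of the Zfp184 reads were found in a Zfp184 transcript, and most of the others matched Rpl21, a ribosomal protein gene, or its pseudogenes. The read counted most often under Zfp184 is given first, as the reason why no value of Zfp184 is described, followed by the most counted coding reads of Zfp57 and Zfp503, which matched no other gene. The coordinates are those of the deposited files (mm9 per the processing notes).
Zfp184, chr13:22045308-22045354, minus strand: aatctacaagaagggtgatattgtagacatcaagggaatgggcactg
Zfp57, chr17:37143064-37143110, plus strand: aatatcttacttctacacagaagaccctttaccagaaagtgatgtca
Zfp503, chr14:22805381-22805427, minus strand: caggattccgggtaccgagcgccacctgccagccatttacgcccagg
The first sequence was read 662 times, 101, 58 and 71 times in the CD24- libraries and 55, 191 and 186 times in the CD24+ libraries, and is present in transcripts of 46 other GENCODE genes. The Zfp57 sequence was read 10 times and the Zfp503 sequence 10 times. For Zfp9, 14.5% of the reads matched its own transcripts and most of the rest matched Larp1. Zfp825 was the only other of the 205 genes with under 50% of its reads in its own transcripts, at 42.5%. Neither Zfp184 nor Zfp9 was called as different between the groups, so leaving them out changes no count of called genes.

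The libraries held 9046025 to 25692147 mapped reads, of which 71.7% to 74.3% were annotated to genes, and values below are counts per 1000000 gene reads after TMM normalisation of the library sizes (CPM). Cd24a, the gene of the sorted marker, had 12.1, 11.5 and 6.99 CPM in the CD24- libraries and 73.3, 85.6 and 72.5 CPM in the CD24+ libraries, a log2 fold-change of 2.91 (SE 0.17, adjusted p = 5.40e-07, edgeR). Of 12 markers of the labelled mammary epithelial type, Cdh1, Epcam, Krt5, Krt14 and Elf5 had fewer than 10 reads in all libraries together. Of the 5 that were tested, 1 was higher and 4 were lower in CD24+ cells, and the summed level of the listed markers was 1942 to 2125 CPM in CD24- and 818 to 950.4 CPM in CD24+ libraries. Fibroblast markers moved the other way, with 5 of 5 tested higher and a sum of 9.13 to 16.02 against 64.8 to 97.8 CPM, while Thy1 and Lum had no reads. Immune markers summed to 46.7 to 80.6 CPM in CD24- and 6.95 to 9.44 CPM in CD24+ libraries, with Adgre1 and Cd3e at 0 reads. Endothelial markers summed to at most 3.98 CPM and adipocyte markers to at most 0.282 CPM. The part of these marker differences in the values below was not tested.

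The first question was how many zinc finger genes differed between CD24- and CD24+ cells. Most differed little. By edgeR's quasi-likelihood test with Benjamini-Hochberg adjustment over 11113 genes at a threshold of 0.05, 26 of the 205 were higher and 43 were lower in CD24+ cells. Together these 69 are 33.7% of the zinc finger genes, against 46.2% of all genes tested, of which 23.9% were higher and 22.3% lower. The 3 values of one group lay entirely above or below those of the other in 44 genes that were higher and 62 that were lower in CD24+ cells, where 29.7% and 27.6% of all genes tested separated in this way. Of these, 37 were not called. In bulk RNA, fewer cells expressing a gene and less RNA per cell cannot be told apart.

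As a group the zinc finger genes lay close to the other genes. Their median log2 fold-change was -0.01, against 0.02 over all genes tested, and 155 of the 205 lay within 0.5 of 0. Their middle range, from the lower to the upper quartile, ran from -0.29 to 0.21, against -0.27 to 0.32. An absolute log2 fold-change above 1 was seen in 16 of them, all called, which is 7.80% against 14.5% of all genes tested. They took 0.591% to 0.642% of the gene reads of a library.

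Among the zinc finger genes, the called share rose with the level, which it did not over all genes tested. Among the 62 zinc finger genes under 8 CPM, 25.8% were called, against 51.9% of all genes at that level. Between 8 and 32 CPM the shares were 31.0% of 84 and 43.0%, and at 32 CPM or more they were 45.8% of 59 and 46.0%. In the highest band the zinc finger genes were therefore called about as often as other genes. The filter of the test let a low gene pass through 1 group alone. Of all genes tested under 8 CPM, 43.1% had an absolute log2 fold-change above 1, against 11.3% of the zinc finger genes there. With every gene with a read tested, 33.7% of the 205 and 37.1% of 14729 genes were called. The part of the filter in these shares was not tested. With 1 library left out, the count of higher zinc finger genes fell from 26 to 16 without CD24- replicate 1 and to 15 without CD24+ replicate 3, while that over all genes tested fell from 2653 to 2178 and 2108. When each distinct sequence was counted once per library, 45 of the 205 genes were called, 22.0% against 33.4% of all genes tested in that setting. The balance then turned to 26 higher and 19 lower, where 2145 of all genes tested were higher and 1549 lower. On quantile-normalised values with limma it was 21 higher and 63 lower, where 2417 and 2865 of all genes tested were.

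**Figure D1:**
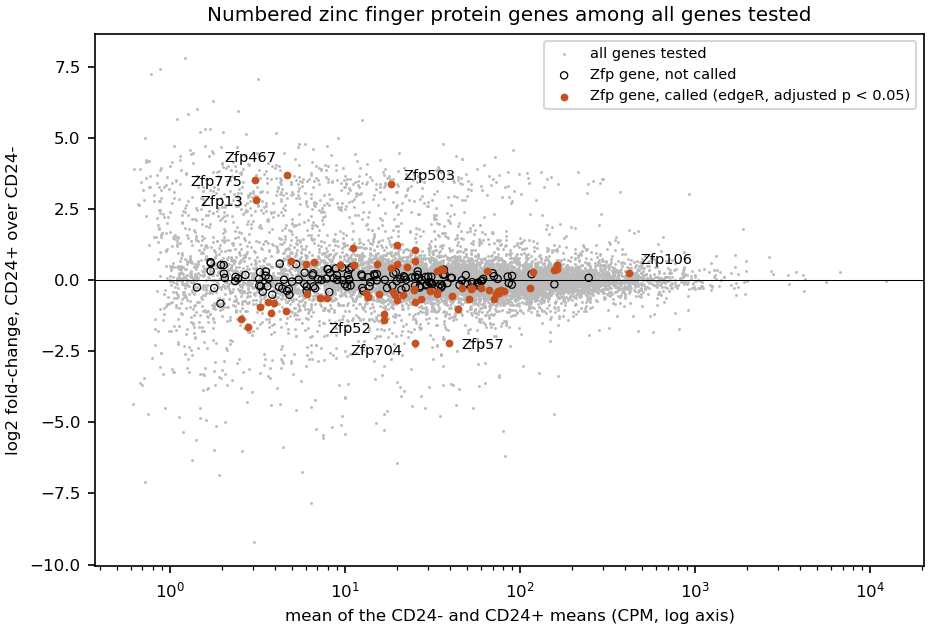
The log2 fold-change of CD24+ over CD24- cells (vertical axis) is plotted against the mean level in CPM (log axis) for 11113 tested genes in grey, with the 205 zinc finger genes as circles, filled where called by edgeR. Most circles lie near 0, and Zfp467, Zfp775, Zfp503 and Zfp13 stand above the rest while Zfp704 and Zfp57 stand lowest.

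The 10 largest increases and the 10 largest decreases were taken among called genes without overlap and with a mean of at least 3 CPM. Their lack of overlap was therefore fixed by the choice. The increases were led by 4 genes that were low in CD24- cells. Zfp467, a zinc finger protein known from the choice of marrow stromal cells between fat and bone, had 0.737, 1.04 and 0.113 CPM in the CD24- libraries and 10.1, 6.55 and 9.48 CPM in the CD24+ libraries. The lowest of these stands for 1 read, and the groups did not overlap. Its log2 fold-change was 3.69 (SE 0.40, adjusted p = 3.99e-05, edgeR), so that the CD24- mean was 7.25% of the CD24+ mean. Zfp775 had 0.421, 0.379 and 0.676 CPM in CD24- and 5.35, 5.59 and 5.97 CPM in CD24+ libraries, a log2 fold-change of 3.52 (SE 0.29, adjusted p = 5.04e-06, edgeR). Its 3 CD24+ values lay close together, and 11.5% of its matching reads were shared with another gene.

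Zfp503, also named Nolz1 and known from the developing striatum, was the most abundant of the 4. It had 3.37, 3.41 and 3.04 CPM in CD24- libraries and 28.6, 39.6 and 32.3 CPM in CD24+ libraries, a log2 fold-change of 3.36 (SE 0.17, adjusted p = 2.19e-07, edgeR). All 3 CD24+ values were far above the CD24- values. Zfp13 had 0.737, 0.758 and 0.789 CPM in CD24- and 5.98, 5.25 and 5.19 CPM in CD24+ libraries, and rose by 2.81 (log2, SE 0.25, adjusted p = 9.28e-06, edgeR). It was the only one of the 4 with a match to the KRAB pattern used below. Zfp467, Zfp775 and Zfp13 reached the read minimum, and the 3 CPM needed to be named, only through the CD24+ libraries, so that a difference was built into their choice. Their CD24- reads were 7, 11 and 1 for Zfp467, 4, 4 and 6 for Zfp775 and 7, 8 and 7 for Zfp13. Zfp503, with 32, 36 and 27 CD24- reads, also needed its CD24+ reads to reach the read minimum. On quantile-normalised values with 10 added to each (limma), the log2 fold-change of Zfp503 was 1.64. Those of Zfp467, Zfp775 and Zfp13 were then 0.72, 0.49 and 0.43, beside 0.72 for Zfp251 and 0.69 for Zfp365, described next.

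Increases near a log2 fold-change of 1 were seen in 3 genes with moderate levels. Zfp251 had 12.2, 13.3 and 10.7 CPM in CD24- and 26.3, 30.3 and 27.5 CPM in CD24+ libraries, a log2 fold-change of 1.22 (SE 0.12). Zfp41 went from a mean of 7.002 ± 1.57 to 15.3 ± 0.872 CPM (SD, n = 3 libraries each), a log2 fold-change of 1.12 (SE 0.17). Zfp365, which encodes a protein that binds the neuronal protein Disc1, went from 16.4 ± 0.281 to 34.0 ± 1.83 CPM, a log2 fold-change of 1.05 (SE 0.10). The groups did not overlap in any of the 3, and their edgeR adjusted p-values ran from 1.72e-05 to 0.000419.

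Smaller increases were seen in Zfp629, Zfp287 and Zfp748. Zfp629 had 21.9, 20.8 and 16.3 CPM in CD24- and 29.9, 32.1 and 31.1 CPM in CD24+ libraries, a log2 fold-change of 0.66 (SE 0.12, adjusted p = 0.00154, edgeR). Zfp287, which has a SCAN box for pairing with other SCAN proteins, rose by 0.66 (log2, SE 0.18, adjusted p = 0.0125, edgeR). Zfp748 rose by 0.64 (log2, SE 0.21, adjusted p = 0.0298, edgeR). The calls of the last pair were near the threshold. The call of Zfp287 was lost without CD24- replicate 2 (adjusted p = 0.0522, edgeR) or CD24+ replicate 3 (adjusted p = 0.0621, edgeR), and that of Zfp748 was lost without any 1 of 5 libraries, all except CD24- replicate 3. Without 1 of these libraries the log2 fold-change was 0.63 and 0.59 for Zfp287, and 0.43 to 0.68 for Zfp748, the lowest without CD24- replicate 2. The Zfp287 call was also lost on reads matching its own transcripts (0.54, adjusted p = 0.0742, edgeR), that of Zfp748 on thinned libraries (0.50, adjusted p = 0.150, edgeR), and both on quantile-normalised values (adjusted p = 0.156 and 0.187, limma).

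**Figure D2:**
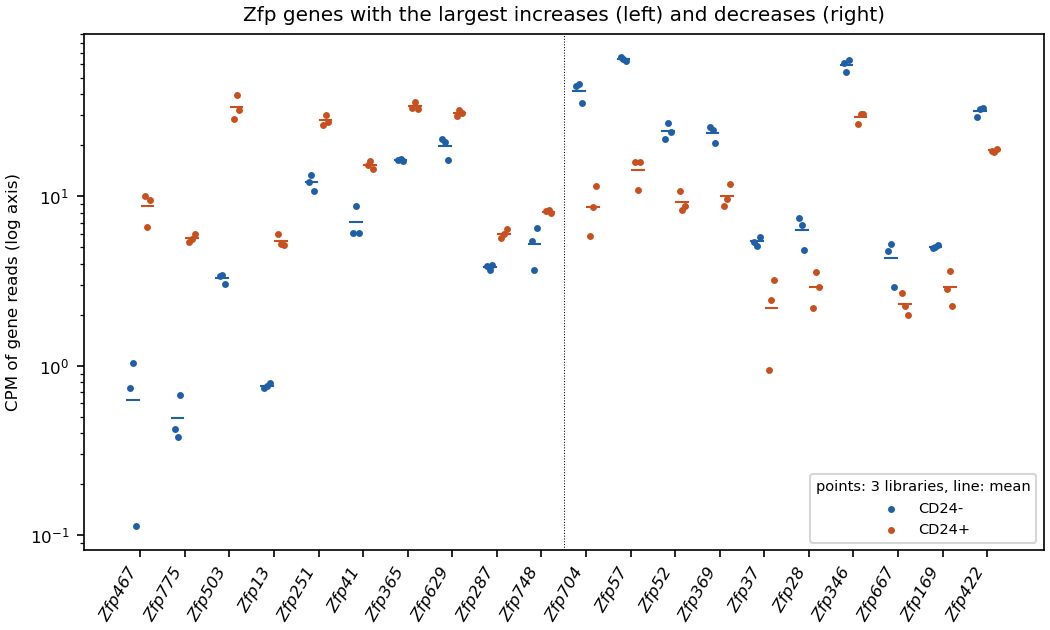
Each point is the level of 1 gene in 1 library in CPM (log axis), blue for CD24- and orange for CD24+ libraries, with a line at each group mean. Shown are the 10 largest increases (left) and the 10 largest decreases (right) among called genes without overlap and with a mean of at least 3 CPM. In every gene shown the 3 points of one group lie above the 3 of the other, which the choice of the genes required. Zfp467 has the widest spread, from 0.113 to 1.04 CPM in CD24- libraries.

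Zfp467 and Zfp775 lie near each other on chromosome 6, where their reads spanned 48383663 to 48395760 and 48563175 to 48572330 (mm9). A region was therefore drawn around them, chosen after their values were seen, and all 14 tested genes within 500 kb of either were listed. Of these, 8 were higher and 0 were lower in CD24+ cells by edgeR, where 23.9% of all genes tested were higher, and 7 had a log2 fold-change above 2.5. Both counts include Zfp467 and Zfp775, whose values prompted the choice of the region. Krba1, which encodes a KRAB-related protein and lies next to Zfp467, rose by 3.72 (log2, SE 0.30) from 0.489 ± 0.181 to 6.45 ± 0.906 CPM (SD, n = 3 libraries each). Repin1, itself a zinc finger gene, rose by 2.76 (log2, SE 0.20) from 2.71 ± 0.933 to 18.6 ± 0.767 CPM. Krba1, like Zfp467 and Zfp775, was so low in CD24- cells that it entered the test through the CD24+ libraries. Gimap9, described next, had 13, 16 and 6 CD24- reads and also needed its CD24+ libraries to enter the test.

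The rise was shared by genes of other kinds at the same place. Gimap9, of a family of immune GTPases, rose by 3.28 (log2, SE 0.29), and Tmem176a and Tmem176b, which encode membrane proteins known from dendritic cells, rose by 3.59 (log2, SE 0.27) and 3.78 (log2, SE 0.26). Tmem176b was at 35.4, 32.1 and 19.8 CPM in CD24- and 486, 268 and 452 CPM in CD24+ libraries. In these 5 neighbours, Krba1, Repin1, Gimap9, Tmem176a and Tmem176b, the CD24- mean was between 7.25% and 14.6% of the CD24+ mean, beside 7.25% for Zfp467 and 8.73% for Zfp775. Not every gene at this place was called. Atp6v0e2, Lrrc61 and Rarres2 had log2 fold-changes of 0.36, 0.35 and 0.77 with edgeR adjusted p-values of 0.120, 0.168 and 0.0696. Their CD24+ values nonetheless lay above the CD24- values, as in 29.7% of all genes tested. Gpnmb, the remaining called gene of the region, rose less, by 1.68 (log2, SE 0.21, adjusted p = 0.000116, edgeR). Zfp777, on the far side, had -0.21 (SE 0.08, adjusted p = 0.0559, edgeR).

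**Figure D3:**
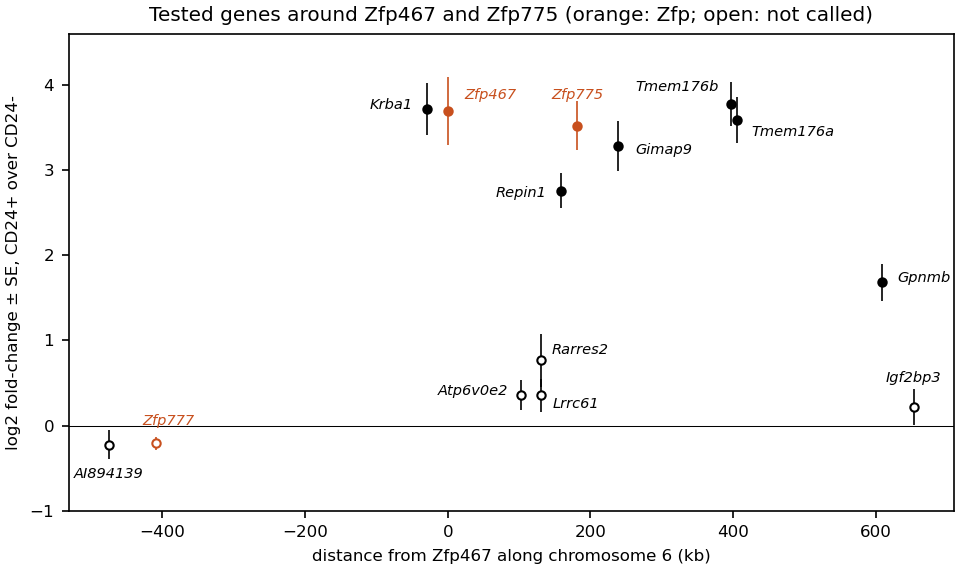
The log2 fold-change with its SE is plotted for the 14 tested genes around Zfp467 and Zfp775 against their distance from Zfp467 in kb along chromosome 6, zinc finger genes in orange, filled where called and open where not. Krba1, Zfp467, Repin1, Zfp775, Gimap9, Tmem176b and Tmem176a lie above 2.5, while Atp6v0e2, Lrrc61 and Rarres2, located among them, lie below 1.

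Since both genes move together and are neighbours, their promoters are shown, 250 bases before to 50 after the start (RefSeq, GRCm38.p6). Capitals mark the GC box GGGCGG and the CCAAT box, searched on both strands together with the E-box CACGTG and the TATA box TATAAA.
Zfp467, chr6:48445041-48445340, minus strand: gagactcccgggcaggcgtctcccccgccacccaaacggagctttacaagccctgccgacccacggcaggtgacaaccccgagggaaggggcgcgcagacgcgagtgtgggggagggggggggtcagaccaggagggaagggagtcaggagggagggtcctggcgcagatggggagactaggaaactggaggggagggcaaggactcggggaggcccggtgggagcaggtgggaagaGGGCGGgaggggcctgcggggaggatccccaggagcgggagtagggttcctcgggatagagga
Zfp775, chr6:48601757-48602056, plus strand: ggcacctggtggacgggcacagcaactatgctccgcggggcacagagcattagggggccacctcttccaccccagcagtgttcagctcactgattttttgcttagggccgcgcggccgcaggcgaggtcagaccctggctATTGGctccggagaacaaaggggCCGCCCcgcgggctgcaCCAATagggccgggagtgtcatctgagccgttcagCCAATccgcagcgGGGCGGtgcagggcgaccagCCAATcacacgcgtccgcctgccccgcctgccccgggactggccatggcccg
The Zfp467 window holds 18 CpG dinucleotides and 1 GC box. The Zfp775 window holds 24 CpG dinucleotides, 2 GC boxes and 4 CCAAT boxes. Neither holds the E-box or the TATA box. Over 32851 mouse promoter windows of the same length, 35.7% hold the GC box, 37.4% the CCAAT box, 7.15% the E-box and 13.6% the TATA box, and the median number of CpG dinucleotides is 7. The 216 windows listed for 167 of the zinc finger genes have a median of 17. The letters describe these windows only and say nothing of which factors bind there.

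The decreases were led by Zfp704 and Zfp57. Zfp704, first described as a glucocorticoid-induced gene, had 44.8, 46.0 and 35.3 CPM in CD24- and 5.82, 8.58 and 11.5 CPM in CD24+ libraries, a log2 fold-change of -2.21 (SE 0.20, adjusted p = 9.32e-06, edgeR). Zfp57, which binds methylated imprinting control regions and keeps them methylated, had 66.1, 64.6 and 62.8 CPM in CD24- and 15.9, 10.9 and 15.98 CPM in CD24+ libraries, a log2 fold-change of -2.20 (SE 0.14, adjusted p = 1.04e-06, edgeR). The CD24+ mean was 20.5% of the CD24- mean for Zfp704 and 22.1% for Zfp57, and neither gene's groups overlapped. For Zfp704, 16.5% of the matching reads were shared with another gene, and for Zfp57 none were.

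Zfp52, a KRAB zinc finger gene of a chromosome 17 cluster, had 21.9, 26.9 and 23.8 CPM in CD24- and 10.7, 8.30 and 8.80 CPM in CD24+ libraries, a log2 fold-change of -1.42 (SE 0.14, adjusted p = 2.16e-05, edgeR). Zfp369, known with Zfp110 as a partner of the neurotrophin receptor p75, had 25.7, 24.5 and 20.7 CPM in CD24- and 8.81, 9.60 and 11.8 CPM in CD24+ libraries, a log2 fold-change of -1.21 (SE 0.15, adjusted p = 8.43e-05, edgeR). Zfp110 itself was not called, at -0.07 (SE 0.11). Zfp346, or JAZ, a protein that binds double-stranded RNA, fell from 59.6 ± 4.87 to 29.3 ± 2.19 CPM (SD, n = 3 libraries each), a log2 fold-change of -1.01 (SE 0.10, adjusted p = 2.09e-05, edgeR). Each of these 3 genes had CD24+ means at 38.3% to 49.1% of the CD24- means.

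Weaker or lower-level decreases made up the rest of the 10. Of these, Zfp37, Zfp28, Zfp667 and Zfp169 reached the 3 CPM needed to be named only through the CD24- libraries. A difference was therefore built into their choice. Zfp37 had 5.37, 5.12 and 5.75 CPM in CD24- and 0.944, 2.43 and 3.20 CPM in CD24+ libraries, a log2 fold-change of -1.16 (SE 0.30, adjusted p = 0.00998, edgeR). Zfp28 fell by 1.08 (log2, SE 0.24) and Zfp667, or Mipu1, by 0.94 (log2, SE 0.27), and both lie in a chromosome 7 cluster described below. Zfp169 fell by 0.80 (log2, SE 0.23, adjusted p = 0.0168, edgeR), and its call was lost without CD24+ replicate 3 (adjusted p = 0.0754, edgeR) and when repeats of a sequence were not counted (adjusted p = 0.0535, edgeR). Zfp422, known from developing teeth, fell by 0.77 (log2, SE 0.10) from 31.8 ± 2.27 to 18.6 ± 0.429 CPM. Zfp820 and Zfp296 are named after their values were seen, since both averaged under 3 CPM, and had log2 fold-changes of -1.64 (SE 0.33) and -1.36 (SE 0.27). Zfp296 had 31, 50 and 27 reads in CD24- and 9, 28 and 25 reads in CD24+ libraries. It reached the read minimum only through the CD24- libraries, so that a difference was built into its choice.

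The 5 zinc finger genes with the highest CPM changed by at most 0.53 on the log2 scale, and 3 of them were called, where 46.0% of all genes at 32 CPM or more were. Zfp106, an RNA-binding protein needed by motor neurons and muscle, had 386, 396 and 377 CPM in CD24- and 437, 479 and 469 CPM in CD24+ libraries, a log2 fold-change of 0.26 (SE 0.08, adjusted p = 0.0175, edgeR). Its groups did not overlap, but the call was lost without CD24- replicate 1 or 2 or CD24+ replicate 3 (adjusted p = 0.0773, 0.0530 and 0.0722, edgeR). Zfp706 had 137, 137 and 126 CPM in CD24- and 199.9, 198 and 177 CPM in CD24+ libraries, a log2 fold-change of 0.53 (SE 0.08, adjusted p = 0.000470, edgeR). With each distinct sequence counted once, neither Zfp106 (0.14, adjusted p = 0.244, edgeR) nor Zfp706 (0.34, adjusted p = 0.0752, edgeR) was called. Zfp740 rose from 141 ± 10.5 to 186 ± 13.7 CPM, by 0.40 (log2, SE 0.09).

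Zfp207, or BuGZ, which helps chromosomes attach to the spindle, had 217, 246 and 260.3 CPM in CD24- and 243, 273 and 247 CPM in CD24+ libraries, and its groups overlapped. Zfp148, a factor for GC-rich elements, had 173, 161 and 165 CPM in CD24- and 147, 156 and 146 CPM in CD24+ libraries, with a log2 fold-change of -0.15 (SE 0.07, adjusted p = 0.117, edgeR). Per kilobase of 1 chosen transcript, the mean level over all 6 libraries was 159 CPM for Zfp207, 46.7 for Zfp106, 42.0 for Zfp740, 36.8 for Zfp706 and 16.1 for Zfp148. Zfp346 stood at 35.5 CPM per kilobase on this scale. The median over the 205 genes was 18.5 CPM, not divided by length, and the range was 1.43 to 424 CPM.

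Among the genes with a well-known role are a pair of ubiquitin ligases. Zfp91, a ubiquitin ligase of the noncanonical NF-kB pathway, had 138, 131 and 140.1 CPM in CD24- and 188, 169.9 and 169.7 CPM in CD24+ libraries, a log2 fold-change of 0.36 (SE 0.08, adjusted p = 0.00349, edgeR). Zfp598, a ubiquitin ligase that marks collided ribosomes, had 103, 106 and 111 CPM in CD24- and 137, 121 and 135 CPM in CD24+ libraries, a log2 fold-change of 0.29 (SE 0.08, adjusted p = 0.0139, edgeR). The groups did not overlap for either gene. The call of Zfp598 was lost without CD24- replicate 1 or 2 or CD24+ replicate 3 (adjusted p = 0.0729, 0.0541 and 0.0723, edgeR). With each distinct sequence counted once, neither Zfp91 (0.25, adjusted p = 0.0717, edgeR) nor Zfp598 (0.19, adjusted p = 0.115, edgeR) was called.

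Among the transcription factors, Zfp281, a regulator of pluripotent cells that binds GC-rich DNA, had 88.9, 87.9 and 79.6 CPM in CD24- and 59.6, 63.1 and 59.8 CPM in CD24+ libraries. Its log2 fold-change was -0.49 (SE 0.08, adjusted p = 0.000798, edgeR), with no overlap. Zfp217, whose human counterpart is amplified in breast cancers, had 131, 134 and 112 CPM in CD24- and 104, 98.4 and 105 CPM in CD24+ libraries, a log2 fold-change of -0.30 (SE 0.09, adjusted p = 0.0198, edgeR). The Zfp217 call was lost without CD24- replicate 1 or 2 (adjusted p = 0.0860 and 0.0899, edgeR), on reads matching its own transcripts (-0.21, adjusted p = 0.111, edgeR) and when repeats of a sequence were not counted (adjusted p = 0.0574, edgeR). Zfp143, a promoter-binding factor, Zfp335, known from neural progenitors, and Zfp568, which represses Igf2 in the embryo, had log2 fold-changes of -0.11 (SE 0.11), 0.04 (SE 0.12) and -0.01 (SE 0.17), with overlapping groups. Zfp516, known from brown fat, had -0.20 (SE 0.16), and without CD24- replicate 3 it was called lower (adjusted p = 0.0237, edgeR).

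Zfp809, which brings Trim28 to murine leukemia virus sequences, had 5.89, 9.76 and 9.02 CPM in CD24- and 11.2, 11.4 and 10.9 CPM in CD24+ libraries. The groups did not overlap, and the log2 fold-change was 0.44 (SE 0.19, adjusted p = 0.0806, edgeR). Only 58.3% of its reads were found in its GENCODE transcripts, and on those reads it was called higher, with a log2 fold-change of 0.61 (adjusted p = 0.0467, edgeR). Zfp423 had 67 reads and is not among the 205 genes. No reads were counted under the symbols Zfp42, Zfp703 and Zfp521.

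The second question was whether zinc finger genes that lie together moved together. A cluster was taken as at least 4 of the 205 genes in a row with no more than 300 kb between neighbours, which gave 9 clusters with 59 genes on chromosomes 6, 7 and 17. Most clustered genes did not pass the test. In clusters, 5 genes were higher and 7 lower, 12 of 59 or 20.3%, against 57 of 146 or 39.0% outside clusters and 46.2% of all genes tested. The clustered genes had a lower median level, 9.47 CPM against 21.9 CPM outside, and the part of level in these shares was not tested. Without CD24- replicate 1, 6 of the 59 were called (36.2% of all genes tested), and on quantile-normalised values with limma 19 were (47.5% of all genes tested).

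A cluster on chromosome 17 held the genes with the largest clustered decreases. It spans chr17:21560197-21982665 (mm9) and holds Zfp54, Zfp51, Zfp53, Zfp52, Zfp760 and Zfp820 in this order. Zfp52, Zfp53 and Zfp820 were lower in CD24+ cells, and the cluster's median log2 fold-change was -0.42. Over the 542 tested genes of chromosome 17 the median was 0.04, and 17.2% were lower. The 1 other tested gene between the ends of the cluster was also lower, at -0.58. Zfp53 had 10.7, 10.995 and 7.67 CPM in CD24- and 5.19, 6.10 and 7.13 CPM in CD24+ libraries, a log2 fold-change of -0.65 (SE 0.19, adjusted p = 0.0198, edgeR). Its neighbours did not all move this way. Zfp760, between Zfp52 and Zfp820, had 0.55 (SE 0.26, adjusted p = 0.101, edgeR), and Zfp51 and Zfp54 had -0.06 (SE 0.20) and -0.20 (SE 0.23).

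The cluster with the lowest median, -0.59, spans chr7:6083093-6349345 (mm9) and holds Zfp787, Zfp444, Zfp667 and Zfp28. Zfp28 had 7.47, 6.73 and 4.85 CPM in CD24- and 2.20, 3.56 and 2.93 CPM in CD24+ libraries (log2 fold-change -1.08, adjusted p = 0.00429, edgeR). Zfp667 had 4.74, 5.21 and 2.93 CPM in CD24- and 2.68, 2.26 and 1.99 CPM in CD24+ libraries (log2 fold-change -0.94, adjusted p = 0.0149, edgeR). The groups did not overlap for either, but the Zfp667 call was lost without CD24- replicate 1 or 2 or CD24+ replicate 3 (adjusted p = 0.0603, 0.0750 and 0.0663, edgeR) and when repeats of a sequence were not counted (adjusted p = 0.0511, edgeR). Zfp787 and Zfp444 had log2 fold-changes of -0.24 (SE 0.10) and -0.21 (SE 0.12) and were not called. Zfp787 was called lower on totals without TMM (adjusted p = 0.0461, edgeR). Without CD24- replicate 3, Zfp444 was called lower (adjusted p = 0.0279, edgeR).

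The cluster with the highest median, 0.16, spans chr7:4866800-4990032 (mm9) and holds Zfp628, Zfp579, Zfp524 and Zfp784, of which 0 were called by edgeR. Of the 831 tested genes of chromosome 7, 41.9% were called. The 5 other tested genes between the ends of this cluster had a median of 0.21, and 0 of them were called. Zfp628 had 25.2, 25.2 and 27.1 CPM in CD24- and 25.2, 26.8 and 28.7 CPM in CD24+ libraries, and its groups overlapped. Zfp579 had -0.34 (SE 0.18) and was called lower without CD24+ replicate 3 (adjusted p = 0.0195, edgeR). Zfp784 had the largest value of this cluster, 0.53, and nearly all of its matching reads were shared with another gene, as given above. It was not tested on reads of a single GENCODE gene. The rank of this cluster, which includes that value, is therefore uncertain. The other clusters had medians from -0.24 to 0.11. In the largest, 11 genes at chr7:30553585-30954755, Zfp74 was higher, with a log2 fold-change of 0.52 (SE 0.14), and the other 10 were not called.

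**Figure D4:**
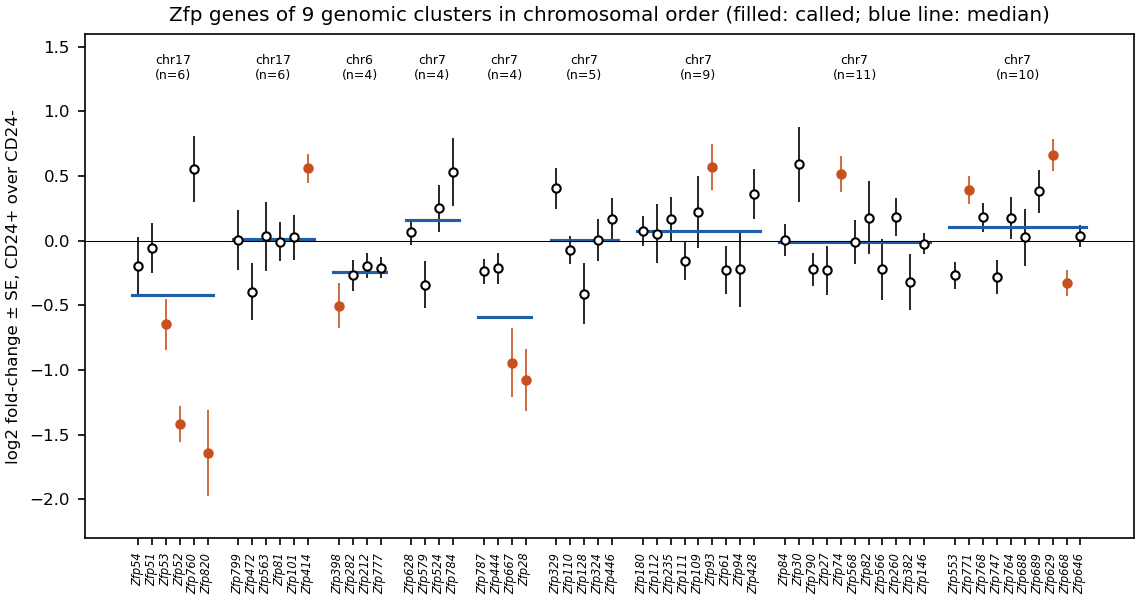
The log2 fold-change with its SE is shown for the 59 genes of 9 clusters in chromosomal order, filled where called by edgeR and open where not, with a blue line at each cluster's median. The first cluster, on chromosome 17, and the fifth, on chromosome 7 with Zfp667 and Zfp28, have the lowest medians at -0.42 and -0.59, and the other 7 lie between -0.24 and 0.16.

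Over whole chromosomes the calls were uneven. On chromosome 15, 5 of 9 zinc finger genes were higher and 0 lower by edgeR, with a median log2 fold-change of 0.40. They were Zfp251, Zfp41, Zfp706, Zfp740 and Zfp623, the last at 0.40 (adjusted p = 0.0332, edgeR). Calls on this chromosome were mostly higher among all genes, since 46.0% of its 441 tested genes were higher and 9.30% lower, with a median of 0.25 without the zinc finger genes. On chromosome 13, 6 of 11 were lower and 1 was higher, where 38.4% of 406 tested genes were lower and 29.8% higher.

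On chromosome 9, 6 of 11 were lower and 0 higher by edgeR, with a median of -0.35, while 18.5% of its 615 tested genes were lower and 22.9% higher. The 6 were Zfp202, Zfp259, Zfp26, Zfp317, Zfp445 and Zfp609. Zfp259, or ZPR1, a protein known to bind the EGF receptor, had 84.3, 90.05 and 88.5 CPM in CD24- and 54.3, 58.3 and 52.0 CPM in CD24+ libraries, a log2 fold-change of -0.67 (SE 0.08, adjusted p = 9.45e-05, edgeR). Zfp609 fell by 0.40 (log2, SE 0.09) and Zfp202 by 0.72 on this scale. Chromosomes 15, 13 and 9, and the genes named here for lying on them, were singled out after their values were seen. Chromosome 7, with 55 of the 205 genes, had 5 higher and 5 lower, where 21.5% of its 831 tested genes were higher and 20.3% lower.

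The third question was whether the calls went with the make-up of the protein. Finger patterns were counted in the translated coding sequence of 1 GENCODE transcript per gene. The median was 9 C2H2 fingers and the maximum 36. The called share was highest among genes with 0 or 1 finger, and 46.2% of all genes tested were called. Of the 14 with 0 or 1 finger, 9 were called, and of the 37 with 2 to 5, 18 were (48.6%, near the share of all genes). Of those with 6 to 10, 11 to 15 and at least 16 fingers, 18 of 66, 18 of 60 and 6 of 28 were called.

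The genes with few fingers also had higher levels. The median was 48.5 CPM with 0 or 1 finger, 33.7 CPM with 2 to 5 and 11.1 CPM with at least 16, and the part of level in the shares was not tested. Zfp503, Zfp365, Zfp259 and Zfp330 matched the pattern nowhere, and the first 3 of them were called, where 46.2% of all genes tested were. Zfp142 and Zfp462, with 36 and 33 fingers, had log2 fold-changes of -0.15 (SE 0.12) and 0.14 (SE 0.10) and were not called.

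**Figure D5:**
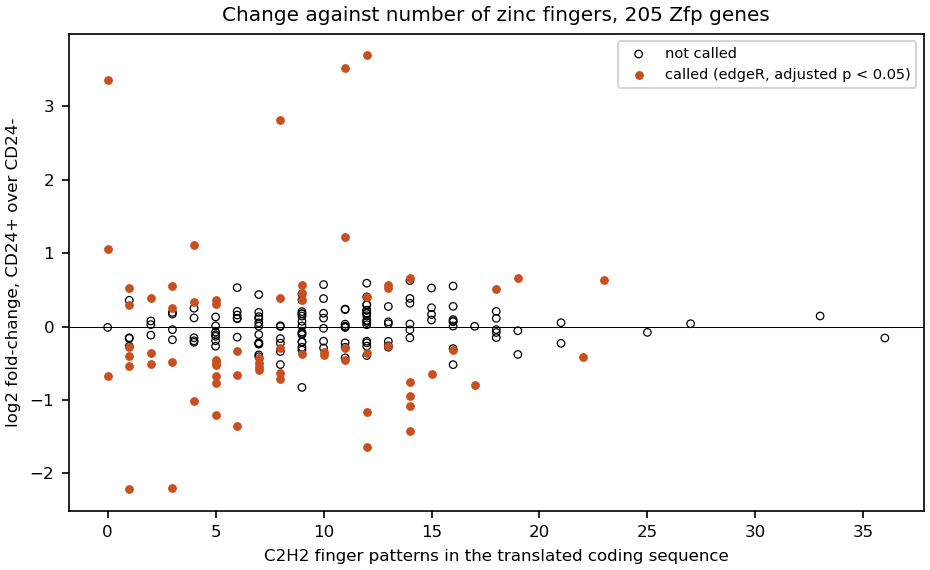
The log2 fold-change of each of the 205 genes is plotted against the number of C2H2 finger patterns in its translated coding sequence, filled where called by edgeR. Genes with 16 or more fingers lie between -0.80 and 0.66, and the larger changes in both directions belong to genes with fewer fingers.

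A KRAB box, as a fixed sequence pattern, was found in 46 of the genes, of which 4 were higher and 9 lower, 28.3%. Without it, 22 were higher and 34 lower, 35.2% of 159, and over all genes tested the share was 46.2%, with 23.9% higher and 22.3% lower. The median log2 fold-change was -0.0019 with the pattern and -0.02 without. The pattern misses boxes that have diverged. A second, mostly looser pattern found 67 genes with 5 higher and 13 lower, but it dropped Zfp51 and Zfp53, which the fixed one finds. Neither pattern found the known box of Zfp57. Genes with the fixed pattern had a median level of 6.97 CPM, against 25.2 CPM without. Without CD24- replicate 1 or 2, 7 and 8 of the 46 were called, where 36.2% and 37.7% of all genes tested were. A pattern for the SCAN box was found in 10 genes, of which 3 were higher and 2 lower, 50% and near the share of all genes. This pattern also misses boxes, since Zfp187, now named Zscan26 and called lower, did not match it. The counts therefore hold only for genes that match the pattern.

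The last question concerned the proteins that KRAB zinc fingers recruit. Trim28 had 440.4, 438 and 501 CPM in CD24- and 426, 465 and 421 CPM in CD24+ libraries, and its log2 fold-change of -0.07 (SE 0.09, adjusted p = 0.520, edgeR) left the groups overlapping. Setdb1 had 145, 136 and 123 CPM in CD24- and 90.8, 104 and 95.1 CPM in CD24+ libraries, a log2 fold-change of -0.48 (SE 0.09, adjusted p = 0.00153, edgeR). Of 31 tested genes of this machinery, out of 32 listed, 2 were higher and 14 lower. Over all genes tested, 23.9% were higher and 22.3% lower. In both directions together the share was 51.6% against 46.2% of all genes tested, with a median of -0.23 against 0.02. When each distinct sequence was counted once, 5 of the listed genes were called, where 33.4% of all genes tested were. The share in both directions together was then no longer above that of all genes.

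The lower genes included methyltransferases for histone H3 and for DNA, with Suv39h1 at -0.91 (SE 0.11), Ehmt1 at -0.43 (SE 0.10), Ehmt2 at -0.40 (SE 0.08), Dnmt1 at -0.34 (SE 0.09) and Dnmt3a at -0.43 (SE 0.10). Of the same enzymes, Suv39h2 at 0.08 (SE 0.13) and Dnmt3b at -0.64 (SE 0.24) were not called. The lower genes also included Atf7ip, the partner of Setdb1, at -0.46 (SE 0.10), and the chromatin remodelers Chd3 and Chd4 at -0.54 (SE 0.09) and -0.42 (SE 0.10). Cbx5, one of the HP1 proteins that bind methylated histone H3, was higher at 0.35 (SE 0.08), while its relative Cbx1 was lower at -0.29 (SE 0.07). Cbx3, another relative, had -0.11 (SE 0.08) and was not called. The deacetylases Hdac1 and Hdac2 had -0.10 (SE 0.08) and 0.02 (SE 0.07) and were not called.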

How the data were processed

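mRNA of sorted CD24- and CD24+ Mvt1 cells (3 plates each) was sequenced from unstranded libraries. The authors trimmed 51-bp reads by 2 nt at each end, collapsed identical reads, mapped them by exact match (mm9 per the processing notes, mapper and annotation source not given in the sources used here) and deposited the counts of each sequence with 1 location and annotation, not normalized. Exact matching drops junction reads, and without strand overlapping genes cannot be told apart. Counts were summed per annotation. Reads annotated to repeats, small RNA or nothing were left out.

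The test was edgeR 4.0.16 (R 4.3.3) glmQLFTest with TMM factors, filterByExpr and Benjamini-Hochberg adjustment at 0.05. On simulated counts of 11024 genes for this comparison, 80% of genes changed 1.5-fold and 100% of genes changed 3-fold were recovered. The 100 genes changed per fold were drawn from all genes at 3 CPM or more, and every gene was given the same variability. The zinc finger genes have a lower median level, 18.5 against 41.4 CPM over all genes tested, so these rates are not theirs. The smallest p of an exact permutation test with 3 against 3 libraries is 0.1, so none was used. DESeq2 1.42.0 and limma 3.58.1 served as alternatives. The same-numbered plates of both groups did not deviate together (correlations 0.01, -0.25 and -0.31), and libraries of a group differed by more than sampling noise.

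Reads were matched exactly to GENCODE M21 transcripts, and promoters are from RefSeq (GRCm38.p6). No coordinates were converted. Named are, among called genes without overlap and with at least 3 CPM, the 10 largest increases and decreases; the 5 highest means; the clusters with extreme medians; and genes with known roles. The genes and lists were chosen with earlier results of these data known, and some listed genes are not reported here by name.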

Additional observations from a re-analysis of the deposited data

How the results depend on the processing

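The 69 called zinc finger genes (26 higher, 43 lower) became 45 (19 lower) when each distinct sequence was counted once, and the silencing machinery went from 16 to 5 called genes. The called share of all genes tested went from 46.2% to 33.4% in this setting. Against a minimum log2 fold-change of 0.5 (glmTreat), 17 zinc finger genes were called (7 higher, 10 lower), 8.29% against 17.3% of all genes tested, with 1 gene of the machinery, 3 clustered genes (of 12), 5 with a KRAB pattern (of 13) and 14 of the named genes (of 27). On quantile-normalised CPM with a regularizer of 10 and limma, 84 were called (21 higher, 63 lower), 41.0% against 47.5% of all genes tested, 19 of them in clusters. Leaving out 1 library at a time gave 47 to 77 called, 15 to 29 higher and 31 to 48 lower. The called share was 22.9% to 37.6% of the zinc finger genes, against 36.2% to 47.4% of all genes tested. The same settings gave 13 to 15 called of the machinery, 6 to 14 in clusters, 7 to 14 with a KRAB pattern and 21 to 29 named genes. The value of Cd24a was 2.71 to 3.05 (log2). The causes of these differences were not tested. Settings with 1 library left out, or with each distinct sequence counted once, also used fewer libraries or reads.

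With a replicate block 58 were called, all among the 69, which is 28.3% against 40.4% of all genes tested. Of the named genes, Zfp106 lost its call (adjusted p = 0.0560, edgeR). Plates with the same number share only a number. DESeq2 called 65, all among the 69, which is 31.7% against 44.6% of all genes tested. With every gene with at least 1 read tested, 69 were called (27 higher, 42 lower), 33.7% against 37.1% of 14729 genes. This larger set also holds genes too low for the main test. Tests with the zinc finger genes counted on reads of a single GENCODE gene called 67 of 199, 33.7% against 46.1% of all genes tested. With the zinc finger genes counted on reads matching their own transcripts 66 of 204 were called, 32.4% against 46.1%. In both cases the other genes kept all their annotated reads, so the shares of all genes tested are not on restricted reads. On libraries thinned to the shallowest 62 of 204 were called, 30.4% against 43.2%. These 3 settings and the looser KRAB pattern were chosen after seeing the data. Cluster gaps of 150 and 600 kb gave 8 clusters with 47 genes and 10 with 70. No called zinc finger gene changed direction in any setting. Restriction to reads with 1 exact location in the genome was not run, because no genome sequence was used here. At this depth, genes of a few CPM carry the largest errors, such as an SE of 0.40 (log2) for Zfp467.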

Other observations

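Related zinc finger families, with at least 100 reads per gene, were listed after the values above were seen. Of 29 tested Zbtb genes, whose proteins join a BTB domain to zinc fingers, 4 were higher and 5 lower in CD24+ cells (31.0% against 46.2% of all genes tested, edgeR), and the median log2 fold-change was -0.02. Of 11 Zscan and Zkscan genes, which carry SCAN boxes, 0 were higher and 3 lower by edgeR. Of 11 Klf genes, 2 were higher and 4 lower, with Klf4 at 2.02 (SE 0.14) and Klf2 at -1.30 (SE 0.23). Of 9 Zfp genes with a letter after the number, 3 were higher and 2 lower, with Zfp354c at 1.63 (SE 0.31), Zfp280c at -0.72 (SE 0.11) and Zfp322a at -0.40 (SE 0.14). Zfp36l1 and Zfp36l2, relatives of the excluded Zfp36, had 0.77 (SE 0.11) and 0.47 (SE 0.08), while Zfp36 itself had -0.70 (SE 0.15).

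Past the chromosome 7 cluster with Zfp667 and Zfp28 lies Peg3, an imprinted gene that encodes a large zinc finger protein and is not part of the numbered series. It had 68.4, 62.0 and 102 CPM in CD24- and 4.56, 7.62 and 5.08 CPM in CD24+ libraries, a log2 fold-change of -3.70 (SE 0.23, adjusted p = 9.19e-07, edgeR). The groups did not overlap. Usp29, its imprinted neighbour, had -1.48 (SE 0.34). Reads annotated to repeats made up 8.27% to 8.70% of the CD24- libraries and 7.56% to 10.2% of the CD24+ libraries, and these ranges overlapped.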
